A study of Mus musculus with 12 samples.

Results

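Aminoacyl-tRNA synthetases are the enzymes that join each amino acid to its transfer RNA. They were taken here by symbol: 1 capital letter followed by ars or ars2, with Farsa, Farsb, Eprs and Ears2, which gave 36 of the 11614 genes measured in every library. Of these, 20 encode the cytosolic enzymes (for glycine and lysine, Gars and Kars, also the mitochondrial form), and 16, with symbols ending in 2, encode enzymes of mitochondria. The libraries were RNA-seq of kidney cortex from C57BL/6J mice, 3 in each of 4 groups. Control mice had normal diet and corn oil, and NASH (non-alcoholic steatohepatitis) mice had a Western diet and carbon tetrachloride (CCl4), a liver toxin, each for 12 or 24 weeks. Each 12-week group had 6 mice, the 24-week control group 8 and the 24-week NASH group 10, with equal numbers of males and females. The labels give no genotype beyond the strain, and do not say which mice, which sex or how many animals stand behind a library, so p-values measure the spread between these samples. Diet, CCl4 and the liver disease came together in the NASH groups and cannot be told apart. In whole cortex, fewer cells of a type and less RNA per cell cannot be told apart either.

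A synthetase recognises its own amino acid and its own transfer RNAs, and the charged transfer RNA is what the ribosome reads codons with. Cytosolic translation and translation inside mitochondria use separate sets of these enzymes, all encoded in the nucleus. Several cytosolic synthetases sit together with 3 scaffold proteins in the multi-synthetase complex. When amino acids run short, uncharged transfer RNA activates the kinase GCN2 (Eif2ak4), and the transcription factor ATF4 then raises many cytosolic synthetase genes together with genes for making and importing amino acids.

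Values below are deposited log2 normalized values unless stated, and a change is a difference of log2 values, so that 1 is a doubling. A gene was called at an adjusted p under 0.05 in limma over all 11614 genes. The libraries held about 7170000 to 14050000 reads, and the shallowest were NASH replicates 2 and 3 of 12 weeks (7170000 and 8230000) and NASH replicate 3 of 24 weeks (8280000). The lowest synthetase value in any library still stood for at least 61 reads. All 6 proximal tubule markers were present at a summed level of 17.2 to 17.6 in every group, while none of the 6 lymphocyte, 4 neutrophil and 4 adrenal markers is among the genes measured. The 4 libraries numbered replicate 1 stood apart from the other 8: Xist, the RNA of the inactive X chromosome, was at 10.6 to 11.5 in them and at 2.97 to 4.86 in the rest, and the Y-linked Ddx3y at 2.48 to 4.25 and 8.95 to 9.62. With equal numbers of males and females in every group but no sex given for a library, being replicate 1 and sex cannot be told apart. Replicates 2 and 3 shared the pattern of low Xist and high Ddx3y, so each group had only 1 library with high Xist. All comparisons were therefore also fitted with the replicate number as a block, which is named wherever it changed a call.

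Synthetase transcripts together took 0.180% to 0.215% of the scaled reads in each library. Per kilobase of transcript, the cytosolic genes had a median level of 8.08 (log2) and the mitochondrial genes 6.87, beside 7.08 for all genes, and 19 of 20 cytosolic but 6 of 16 mitochondrial genes lay above that all-gene median. Nars (asparagine) was highest at 9.53, followed by Kars (lysine) at 9.35 and Sars (serine) at 9.18. Vars (valine) at 6.96, Dars (aspartate) at 7.21 and Lars (leucine) at 7.25 were the lowest cytosolic genes. Among the mitochondrial genes Iars2 (isoleucine) stood at 9.07, Rars2 (arginine) at 8.46 and Fars2 (phenylalanine) at 8.37, and Ears2 (glutamate, 5.38), Wars2 (tryptophan, 5.42) and Mars2 (methionine, 5.43) were lowest. Levels per kilobase rest on the lengths listed in the files, and for 6 of the 36 genes the matched GENCODE transcript differed in length by more than 1.5-fold. With transcript lengths the class medians were 8.08 and 6.92, Sars moved to 10.17 and first place, Ears2 to 7.06 and out of the lowest 3, and Mars2 to 3.46 and last place. Neighbours in these orders often differed by less than their spread: the SD of 1 gene over the 12 libraries had a median of 0.19 in the cytosolic and 0.18 in the mitochondrial class, beside 0.29 over all genes. The widest ranges across the 12 libraries were those of Mars2 (1.05) and Cars2 (1.02), and the narrowest those of Hars (0.24) and Lars2 (0.33).

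**Figure D1:**
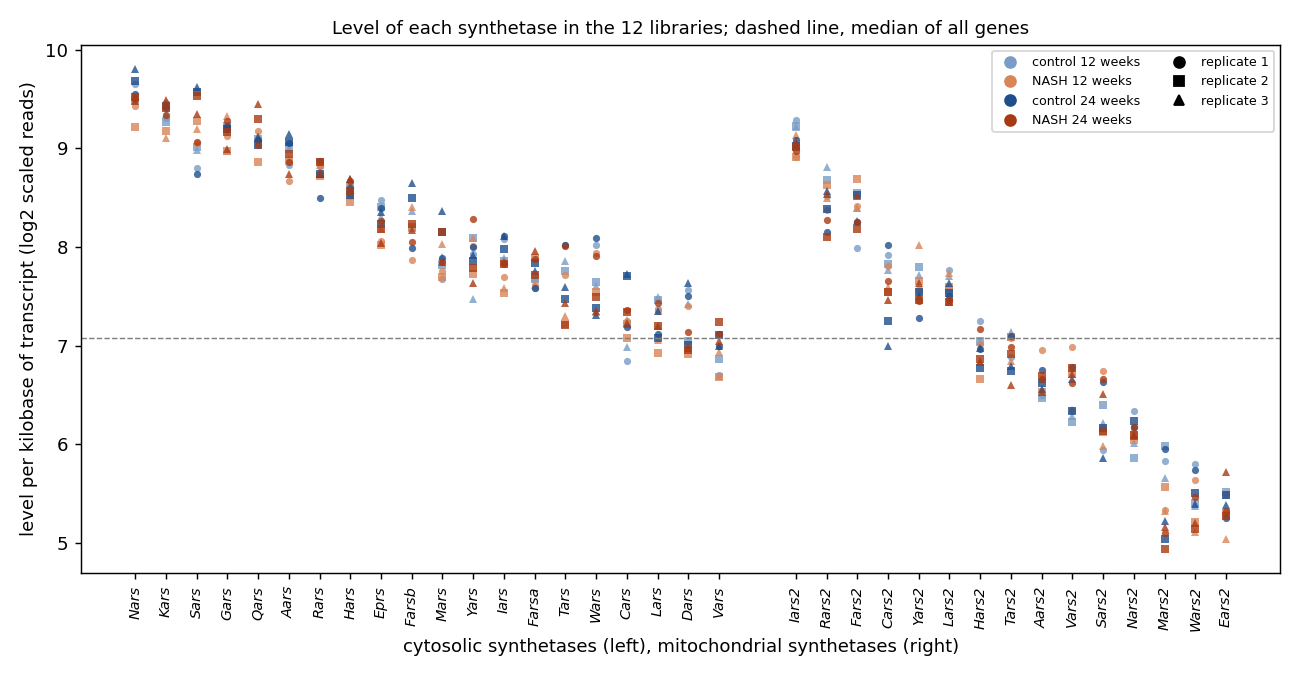
Level per kilobase of transcript (vertical axis, log2 scaled reads) of 35 of the synthetases in each of the 12 libraries (points; colour, group; shape, replicate number), cytosolic genes on the left, mitochondrial on the right, each ordered by mean. The dashed line is the median of all genes, 7.08; Vars alone of the cytosolic genes has its mean below it, and the points of 1 gene spread by about 0.24 to 1.05.

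Cytosolic and mitochondrial enzymes for the same amino acid could be paired for 16 amino acids (17 pairings, since Farsa and Farsb are both subunits of the cytosolic phenylalanine enzyme). The cytosolic gene was higher per kilobase in the mean of 12 pairings and in every library of 9. Nars exceeded Nars2 by 10.6-fold (3.41 ± 0.14 on the log2 scale, SD over 12 libraries), Sars exceeded Sars2 by 7.48-fold (2.90 ± 0.50), and Eprs, which charges both glutamate and proline, exceeded Ears2 by 7.26-fold (2.86 ± 0.25). The order was turned around in every library in 3 pairings. Iars2 was 2.31-fold above Iars (1.21 ± 0.18), Fars2 1.55-fold above Farsa (0.64 ± 0.17) and Lars2 1.25-fold above Lars (0.32 ± 0.21). With transcript lengths in place of the listed ones, Sars exceeded Sars2 by 14.5-fold, Eprs exceeded Ears2 by 2.25-fold, Mars exceeded Mars2 by 22.2-fold in place of 5.66-fold, Iars2 exceeded Iars by 1.51-fold, and Farsb moved above Fars2 as the only change of sign among the 17. In the other 5 pairings the order, with the listed lengths, depended on the library, and for Farsb and Fars2 the mean difference of -0.13 was smaller than its SD of 0.28. The widest swing was in the cysteine pair, where Cars minus Cars2 ran from -1.08 to 0.72. Of the transcript stretches of 50 bases in Iars2, 36.6% also occur in transcripts annotated to Rab3gap2, 22.4% of those in Aars occur in Exosc6 and 17.8% of those in Cars2 occur in Naxd, so the levels of Iars2, Aars and Cars2 are uncertain to the extent that such reads were shared out. Matches on either strand were counted. The Iars2 and Aars transcripts searched (5471 and 5750 bases) were longer than the listed lengths (3540 and 3715), so part of the shared stretches may lie outside what was counted.

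NASH and control kidneys differed little in synthetase RNA at 12 weeks. None of the 36 genes was called by limma without the block, where 0.0517% of all genes (6 of 11614) were called. At an unadjusted p under 0.05, 5 of the 36 passed, 1 higher (Vars2) and 4 lower (Iars, Eprs, Lars, Iars2), beside 14.5% of all genes. With the replicate block 2 were called, both lower in NASH: Iars, the isoleucine enzyme, and Tars, the threonine enzyme. The block called 9.85% of all genes lower and 3.01% higher, so 2 of 36 lower and 0 of 36 higher lie below the share over all genes. The changes of the 36 ran from -0.47 to 0.40, with 13 above and 23 below 0 and a median of -0.073, beside -0.080 over all genes. The cytosolic median was -0.059 and the mitochondrial -0.090, and the latter moved to 0.013 once a trend on GC content and length was removed and to 0.012 after quantile normalization. No 95% interval of a 12-week change without the block went beyond -0.96 or 0.77.

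**Figure D2:**
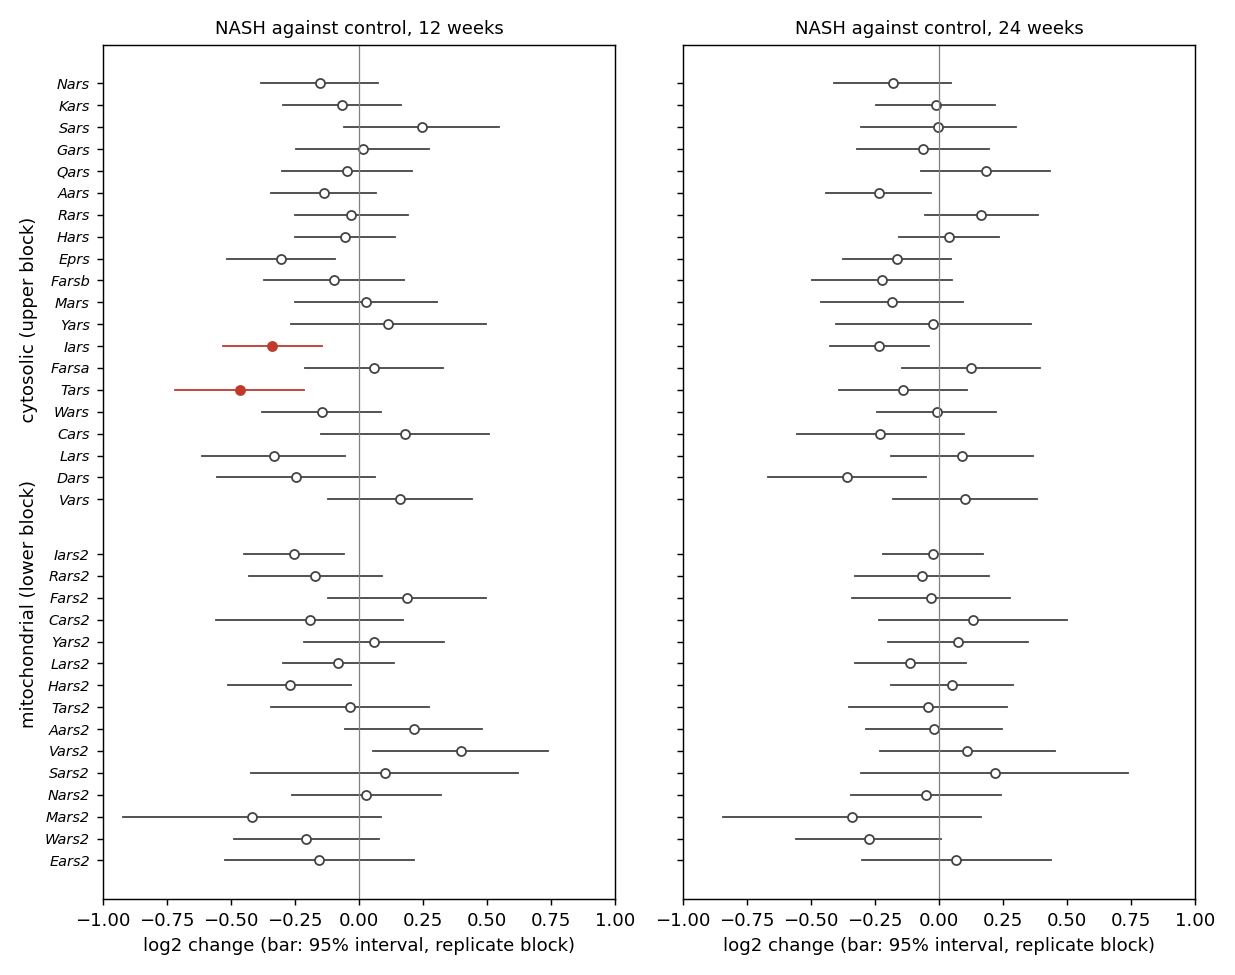
Log2 change of 35 of the synthetases in NASH against control mice at 12 weeks (left) and 24 weeks (right), with the 95% interval from limma with the replicate block; filled red points are called. Only Iars and Tars at 12 weeks are filled, and intervals of most other genes cross 0.

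Iars was lower in NASH at both times. Its values at 12 weeks were 10.21, 10.00 and 10.02 in control replicates 1 to 3 and 9.83, 9.67 and 9.72 in NASH. At 24 weeks they were 10.25, 10.11 and 10.25 in control and 9.96, 9.96 and 9.99 in NASH. Every NASH library lay below every control library of its time, and Iars was the only synthetase of which that held at both times (1 of 36, beside 0.697% of all genes). The change at 12 weeks was -0.34 (SE 0.087 with the block, limma adjusted p = 0.0334), and without the block the adjusted p was 0.260. At 24 weeks it was -0.23 (95% interval -0.43 to -0.04, limma adjusted p = 0.449 with the block). The call at 12 weeks was lost when any of the 6 libraries of that time was left out, with adjusted p from 0.071 to 0.099, and the change shrank to -0.084 (adjusted p = 0.66) once the trend on GC content and length was removed. The gene lies on chromosome 13, 49682130 to 49734267 (+ strand, mm10), and 8.61% of its transcript stretches of 50 bases also occur in Gm4849.

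Tars was lower in NASH at 12 weeks, on top of a difference between replicate 1 and the others. Its values were 9.42, 9.16 and 9.25 in control replicates 1 to 3 and 9.11, 8.62 and 8.70 in NASH, without overlap. Set against the control library of the same number, the NASH library was lower by 0.31, 0.54 and 0.55. The change was -0.47 (SE 0.11, limma adjusted p = 0.0280 with the block and 0.365 without it). At 24 weeks the values were 9.41, 8.87 and 8.99 in control and 9.41, 8.61 and 8.83 in NASH, which overlapped, with a change of -0.14. The call at 12 weeks was lost when control replicate 2 or 3 or any NASH replicate was left out (adjusted p from 0.062 to 0.11), and the change was -0.33 (adjusted p = 0.12) with the GC and length trend removed. Tars lies on chromosome 15, 11383663 to 11399658 (- strand, mm10).

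Markers of other cells also moved with NASH. For hepatocytes, their summed level was 11.5 to 12.7 in the 12-week NASH libraries and 10.2 to 10.6 in the controls, with all 6 markers measured. At 24 weeks it was 9.65 to 10.2 in control and 10.3 to 12.0 in NASH. Single hepatocyte markers did not all rise at 12 weeks: 5 had changes above 0 and 1 below (-0.69). With the block 2 of these 6 were called higher at 12 weeks. At 24 weeks all 6 had changes above 0, with none called. The 5 erythroid markers, all measured, summed to 10.2 to 10.6 in control and 10.6 to 12.7 in NASH at 12 weeks and to 9.46 to 10.7 and 10.5 to 12.1 at 24 weeks, and with the block 4 of them were called higher in the average of both times. All 5 adipocyte markers were lower in NASH at 24 weeks (summed level 8.97 to 10.6 against 10.6 to 14.0), with none called. At 12 weeks all 5 went the other way, higher in NASH (9.76 to 11.2 against 8.57 to 10.3), again with none called. Of the 5 collecting duct markers, 1 was called higher with the block at 12 weeks and 1 in the average. In both comparisons 3 of the 5 had changes below 0. The 5 loop and distal tubule markers were mixed at 12 weeks. With the block 2 were called lower, while the other 3 had changes above 0, and the median of the 5 was 0.34. The part of any of these in the Iars and Tars values was not tested. Across genes, the change at 12 weeks also correlated with base composition. Over the 36 genes it correlated with transcript GC content at r = 0.66, beside 0.28 over 11582 genes with a known GC content, and at 24 weeks at 0.52 beside 0.13. With length the correlation at 12 weeks was -0.097 over the 36 and -0.41 over the 11582 genes. At 24 weeks it was -0.19 and -0.22. The trend removed above held both GC content and length, so their parts in it are not separated. These are correlations across genes of the same 12 libraries and are given as a description. Iars has 48.3% GC and Tars 46.6%, beside a median of 50.7% over the 36, and Vars2 and Aars2 have 58.6% and 59.99%. Other members did not follow this order. Aars (56.4% GC) had means of 10.84 in control and 10.70 in NASH at 12 weeks, and Cars2 (55.8%) 8.73 and 8.54. Mars2 had the lowest GC content (38.8%), and its matched transcript has 11294 bases beside a listed length of 2882.

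**Figure D3:**
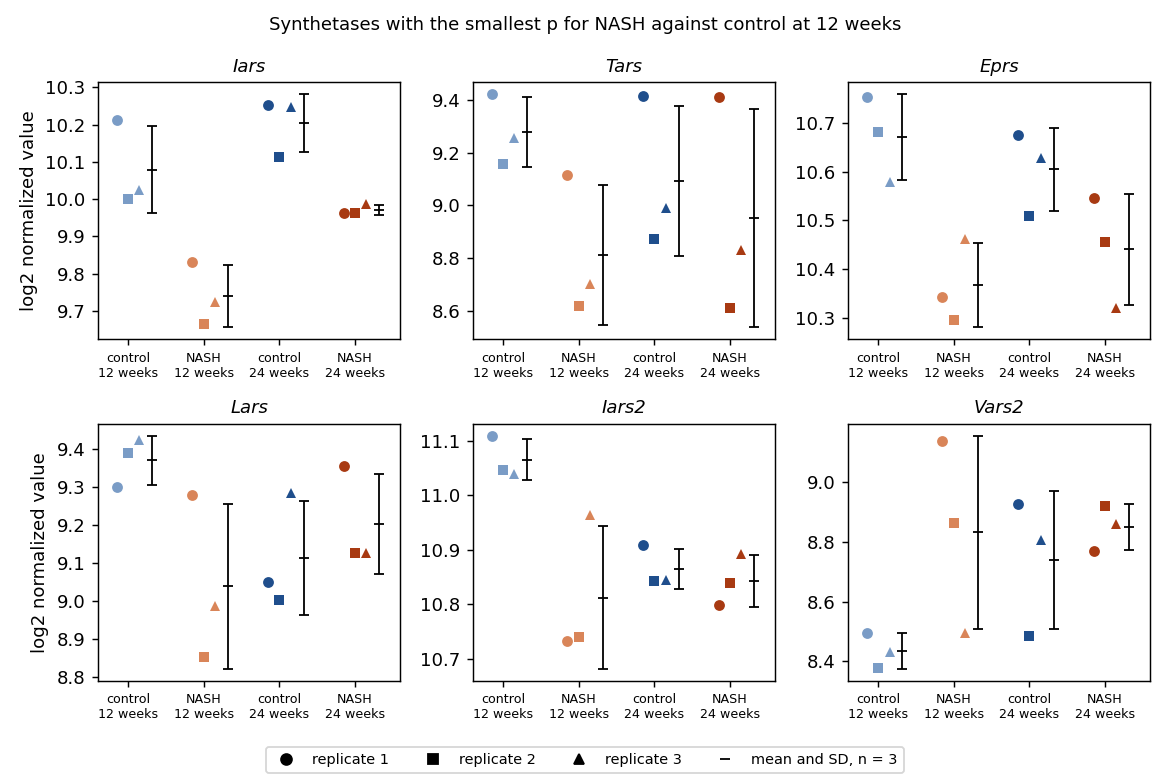
Deposited log2 normalized values (vertical axis) of 6 synthetases in the 4 groups (horizontal axis); points are libraries, shaped by replicate number, and the dash with bar is the mean and SD of 3. Iars in NASH lies below control at both times, and in Tars the circles of replicate 1 lie above the other points of their group.

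The remaining genes with a small p at 12 weeks fell short of the threshold with and without the block. Eprs had 10.75, 10.68 and 10.58 in control replicates 1 to 3 and 10.34, 10.29 and 10.46 in NASH, without overlap, a difference of -0.30 (limma adjusted p = 0.0582 with the block). Lars had 9.30, 9.39 and 9.42 in control and 9.28, 8.85 and 8.99 in NASH, also without overlap, a difference of -0.33 (adjusted p = 0.103 in limma with the block). Vars2, the mitochondrial valine enzyme, pointed the other way, with 8.50, 8.38 and 8.43 in control and 9.14, 8.86 and 8.49 in NASH, a difference of 0.40 whose adjusted p in limma was 0.111 with the block. Iars2 stood at 11.11, 11.05 and 11.04 in control and 10.73, 10.74 and 10.96 in NASH. These groups did not overlap in Iars2, and the difference of -0.25 had an adjusted p of 0.0827 in limma with the block. Libraries did not overlap at 12 weeks for 7 synthetases that were lower in NASH (Eprs, Iars, Lars, Tars, Hars2, Iars2 and Mars2), beside 14.4% of all genes, and for 2 that were higher (Sars and Aars2), beside 8.14%.

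Of the 4 cytosolic genes with an unadjusted p under 0.05 or a call at 12 weeks, 3 encode members of the multi-synthetase complex (Eprs, Iars and Lars). The complex holds 8 of the 20 cytosolic genes (Eprs, Iars, Lars, Mars, Qars, Rars, Kars and Dars), a grouping made after their values were seen. Of these 8, 7 had a change below 0 at 12 weeks, with a median of -0.16, against 6 of 12 and -0.020 in the cytosolic genes outside it. Over all genes, 6926 of 11614 were below 0, with a median of -0.080. At 24 weeks 5 of 8 were below 0 with a median of -0.089, against 9 of 12 and -0.042, beside 5562 of 11614 and 0.010 over all genes. The scaffold genes of the complex, Aimp1, Aimp2 and Eef1e1, changed by 0.11, -0.17 and -0.14 at 12 weeks, and none was called.

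The promoters of the called genes are shown because both hold a form of the element to which ATF4 binds with a C/EBP partner. RefSeq promoters (GRCm38.p6, 250 bases before to 50 after the start) were matched for 26 of the 36 genes; Cars, Hars, Hars2, Lars, Lars2, Nars, Rars, Vars and Wars were among those with no match. TGATGNAA, searched on both strands, occurred in 5 of the 26 (Aars, Gars, Iars, Tars and Yars), all cytosolic, and in 4.06% of 27025 promoters of all genes. The narrower TGATGCAA, which is contained in it, occurred in 4 of them, all but Gars, and in 0.929% of all. The E-box CACGTG occurred in 5 (Aars, Ears2, Farsb, Iars and Tars) and in 7.24% of all. The windows below run from 100 bases before to 20 after the start, 5′ to 3′ on the strand of the gene, with TGATGNAA or its reverse complement in capitals: Iars at chr13:49682030-49682149 (+), Tars at chr15:11399639-11399758 (-), Aars at chr8:111033742-111033861 (+), Gars at chr6:55037901-55038020 (+) and Yars at chr4:129189803-129189922 (+).
Iars: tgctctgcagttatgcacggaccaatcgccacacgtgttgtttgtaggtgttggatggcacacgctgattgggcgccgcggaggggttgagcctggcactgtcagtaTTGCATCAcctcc
Tars: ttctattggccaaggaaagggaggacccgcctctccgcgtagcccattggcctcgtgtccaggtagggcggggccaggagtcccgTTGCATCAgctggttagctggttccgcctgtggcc
Aars: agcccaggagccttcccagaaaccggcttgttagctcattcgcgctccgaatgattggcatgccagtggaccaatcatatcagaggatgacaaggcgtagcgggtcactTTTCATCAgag
Gars: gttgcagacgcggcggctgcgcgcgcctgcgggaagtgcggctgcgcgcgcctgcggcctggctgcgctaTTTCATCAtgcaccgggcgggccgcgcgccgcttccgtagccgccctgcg
Yars: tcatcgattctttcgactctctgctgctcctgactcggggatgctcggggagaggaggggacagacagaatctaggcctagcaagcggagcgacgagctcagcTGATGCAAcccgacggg
Counted from the start, with bases before it negative, the match begins at 8 in Iars, -15 in Tars, 10 in Aars, -30 in Gars and 4 in Yars, and Aars has another at -112, outside the window. The match at -112 is the TGATGCAA of Aars, and its capitals in the window show only the broader form. A match describes these letters and is not evidence of binding. The 5 genes did not share a direction in NASH at 12 weeks: beside Iars at -0.34 and Tars at -0.47, the changes were -0.14 in Aars, 0.01 in Gars and 0.11 in Yars, and none of the latter 3 was called.

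At 24 weeks no synthetase was called, and 0% of all genes were called without the block and 0.00861% with it. At an unadjusted p under 0.05 in limma, 1 of the 36 passed without the block (Iars), beside 2.99% of all genes, and 3 passed with it (Iars, Dars and Aars), beside 9.68%. Changes ran from -0.36 in Dars to 0.22 in Sars2, with a median of -0.022 beside 0.010 over all genes. Dars had 8.66, 8.16 and 8.79 in control replicates 1 to 3 and 8.29, 8.11 and 8.14 in NASH, with overlap. Aars had 10.95, 10.95 and 11.04 in control and 10.76, 10.84 and 10.64 in NASH, without overlap, a difference of -0.23 (limma adjusted p = 0.464 with the block). Libraries did not overlap for 4 genes that were lower in NASH (Aars, Iars, Nars and Lars2), beside 2.65% of all genes, and for 1 that was higher (Rars), beside 4.56%. The change at 24 weeks was not shown to differ from that at 12 weeks for any synthetase: the difference was called for 0 of 36 without the block (0% of all genes) and with it (0.00861%), and 0 (beside 3.66% of all genes) and 1 (beside 12.8%) passed at an unadjusted p under 0.05 in limma. That 1 was Lars, with a difference of 0.42 (95% interval 0.03 to 0.82, adjusted p = 0.364 with the block).

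Averaged over both times, no synthetase was called without the block (0% of all genes), and 4 passed at an unadjusted p under 0.05 in limma, all lower (Iars, Eprs, Aars and Mars2), beside 13.6% of all genes. With the block, Iars at -0.29 (SE 0.062, limma adjusted p = 0.0230) and Tars at -0.30 (SE 0.080, adjusted p = 0.0396) were called lower, beside 7.36% of all genes lower and 3.03% higher. Eprs, at -0.23, had an adjusted p of 0.0503 in limma with the block. The GC and length trend removed, Iars was at -0.13 (adjusted p = 0.32) and Tars at -0.23 (adjusted p = 0.13) in limma. The Iars call was also lost in replicates 2 and 3 alone, without control replicate 3 of either time, and without NASH replicate 1 or 3 of 24 weeks, with adjusted p from 0.053 to 0.11. The Tars call held in 2 of the 12 fits that left out 1 library (without replicate 1 of control at 12 weeks or of NASH at 24 weeks), and was lost after quantile normalization (adjusted p = 0.060) and without the trend (0.057) in limma.

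Between control mice at 24 and 12 weeks, 0 of 36 were called without the block (0% of all genes) and with it (0.172%). At an unadjusted p under 0.05 in limma 1 passed without the block (Cars, the cysteine enzyme) beside 7.84% of all genes, and 7 with it, beside 19.5%, the cytosolic Cars, Sars, Mars and Vars higher and the mitochondrial Cars2, Rars2 and Iars2 lower at 24 weeks. The cytosolic median was 0.087 and the mitochondrial -0.14, beside -0.081 over all genes, of which more lay below 0 than above. The summed level of all 5 adipocyte markers was 8.57 to 10.3 in the 12-week and 10.6 to 14.0 in the 24-week controls, without overlap, and its part in these differences was not tested. In replicates 2 and 3 alone, 3 genes were called: Cars and Sars higher (2.33% of all genes higher) and Cars2 lower (4.17% lower). These were named after their values were seen.

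Cars had 8.41, 8.79 and 8.56 in the 12-week controls and 8.76, 9.28 and 9.30 in the 24-week controls, replicates 1 to 3. The difference was 0.52 (SE 0.15, limma adjusted p = 0.104 with the block) over 3 replicates and 0.61 (SE 0.14, adjusted p = 0.0349) in replicates 2 and 3. Sars had 10.69, 10.90 and 10.87 at 12 weeks and 10.63, 11.46 and 11.51 at 24 weeks, with replicate 1 near the same level at both times, and the difference in replicates 2 and 3 was 0.60 (SE 0.11, limma adjusted p = 0.0116). Cars2 ran the other way, with 8.81, 8.72 and 8.66 at 12 weeks and 8.91, 8.13 and 7.89 at 24 weeks, a difference of -0.68 (SE 0.15, limma adjusted p = 0.0289) in replicates 2 and 3. In NASH mice none was called between the 2 times (0% of all genes without the block, 0.0258% with it). Iars, at 0.23 (95% interval 0.04 to 0.42 with the block, limma adjusted p = 0.338), was the only synthetase with an unadjusted p under 0.05 there, beside 11.5% of all genes.

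**Figure D4:**
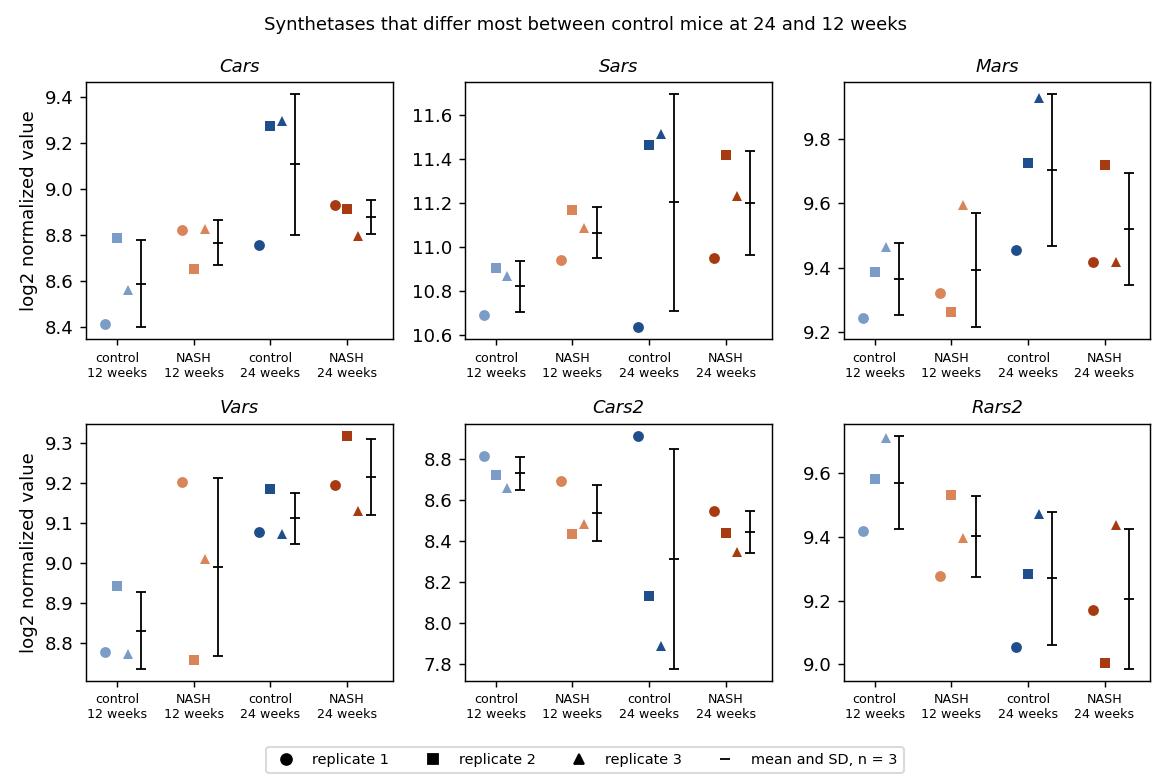
Deposited log2 normalized values (vertical axis) of 6 synthetases in the 4 groups (horizontal axis); points are libraries, shaped by replicate number, and the dash with bar is the mean and SD of 3. In Sars and Cars2 the 24-week control library of replicate 1 (circle, 10.63 and 8.91) lies far from the squares and triangles of replicates 2 and 3.

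Mars, the methionine enzyme, had 9.24, 9.39 and 9.47 in 12-week and 9.46, 9.72 and 9.93 in 24-week controls, and its neighbour Ddit3, which shares 0.618% of the Mars stretches of 50 bases, is one of the ATF4 pathway genes. In the same comparison Asns (asparagine synthetase) differed by 1.03, Eif4ebp1 (a brake on translation) by 1.12 and Ddit3 (the stress factor CHOP) by 0.92, while Atf4 itself differed by -0.29. None of the 21 measured genes of the ATF4 list was called over all replicates, and 10 lay above 0 and 11 below, with a median of -0.037. In replicates 2 and 3 alone Eif4ebp1 (1.10, limma adjusted p = 0.0159) and Cebpb (2.34, adjusted p = 0.00537) of the list were called higher, and Asns (1.15, adjusted p = 0.107) was not. In the same fit Ppp1r15a, from the list of eIF2 kinases and partners, was called higher (0.79, limma adjusted p = 0.0363). Of all genes, 2.33% were called higher there.

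More synthetases were called between library numbers, a contrast of 4 with 8 libraries, than between treatments, and the same held for all genes. Replicate 1 against replicates 2 and 3 over all groups gave 8 called genes, 6 higher (Wars, Tars, Wars2, Cars2, Dars and Hars2) and 2 lower (Sars and Farsb), beside 37.3% of all genes higher and 9.98% lower. With the deposited scaling, the share of the synthetases lay below that of all genes in each direction. Wars, the cytosolic tryptophan enzyme, lay at 9.37 to 9.56 in the 4 libraries of replicate 1 and at 8.77 to 9.11 (median 8.90) in the other 8, without overlap, a difference of 0.53 (SE 0.079, limma adjusted p = 0.000494). Tars lay at 9.11 to 9.42 against 8.61 to 9.25 (median 8.85), with overlap, a difference of 0.46 (SE 0.085, limma adjusted p = 0.00166). Sars was lower in replicate 1, at 10.63 to 10.95 against 10.87 to 11.51 (median 11.20), a difference of -0.40 (SE 0.10, limma adjusted p = 0.00858). Wars2, the mitochondrial counterpart of Wars, differed by 0.37 (limma adjusted p = 0.00991), Cars2 by 0.35, Dars by 0.28 and Hars2 by 0.22, while Farsb differed by -0.31 (adjusted p = 0.0177).

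The median difference of the 36 was 0.042 beside 0.198 over all genes, and scalings that bring the all-gene median near 0 moved that of the 36 to -0.12 (quantile normalization) and -0.15 (median-of-ratios). The calls then numbered 13 and 16 of the 36, beside 4642 and 4845 of all 11614 genes, with Wars and Tars the only ones higher under either. Under median-of-ratios scaling the share of the synthetases, both directions together, lay slightly above that of all genes. Wars2, Cars2, Dars and Hars2 lost their calls under both, and Hars2 changed sign after quantile normalization (-0.012). Leaving out any 1 library kept Wars, Tars and Wars2 higher and Sars lower among the calls, which numbered 4 to 9; 4 remained when replicate 1 of control at 24 weeks or of NASH at 12 weeks was the library left out. All 5 podocyte, all 5 loop and distal tubule and all 5 endothelial markers were measured, at summed levels of 13.4 to 13.8, 15.8 to 16.7 and 12.3 to 12.9 in replicate 1 and 12.1 to 12.7, 14.6 to 16.0 and 11.03 to 12.2 in the others. Their part in these differences was not tested.

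**Figure D5:**
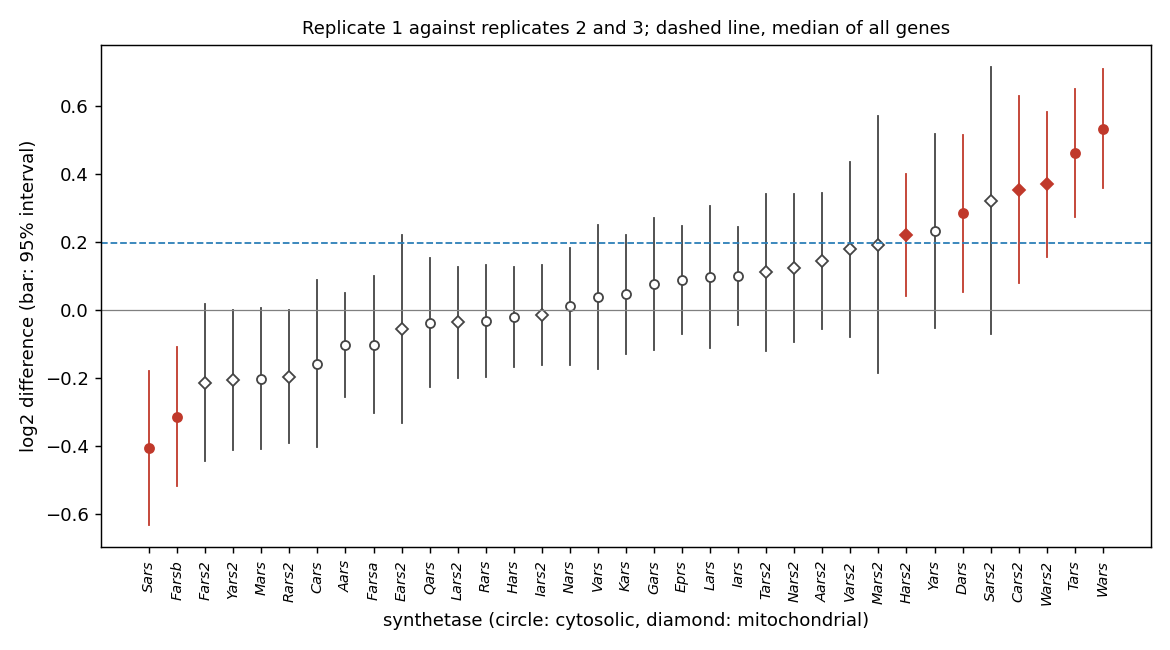
Log2 difference between replicate 1 and replicates 2 and 3 over the 4 groups (vertical axis) for 35 of the synthetases, ordered by size, with 95% intervals; filled red symbols are called. The dashed line is the all-gene median of 0.198; Wars and Tars lie above it with their whole intervals, and Sars and Farsb lie below 0.

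The genes around the synthetases were described from textbook lists. Among 12 of 17 measured genes for other charging, transamidation and editing steps, 2 were called at 12 weeks with the block, both lower, beside 9.85% of all genes. Both were also called lower in the average of both times, beside 7.36% of all genes. Sepsecs, which makes the selenocysteine of its transfer RNA from a serine that Sars attaches, was at 7.97 ± 0.34 in control and 7.17 ± 0.39 in NASH (SD, n = 3), a change of -0.80 (SE 0.18, limma adjusted p = 0.0217). Ptrhd1, of the peptidyl-tRNA hydrolase family, was at 11.79 ± 0.15 and 11.26 ± 0.12, a change of -0.53 (SE 0.12, limma adjusted p = 0.020). Without the block the adjusted p values in limma were 0.287 and 0.237. In replicates 2 and 3 alone, without the block, they were 0.317 and 0.0633. Of 11 of 12 measured elongation factor genes none was called at either time, and Eef1d, part of the exchange factor that recharges the elongation factor carrying aminoacyl-tRNA, was called higher in the average with the block (0.28, limma adjusted p = 0.0390). Of 14 of 15 measured genes of GCN2, the other eIF2 kinases and their partners none was called in NASH at either time, nor were the 2 of 4 measured MYC family genes.

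The ATF4 list without synthetases had 21 of 28 genes measured, of which 2 were called higher and 1 lower at 12 weeks with the block, and 0 without it. With the block, 3.01% of all genes were called higher and 9.85% lower. Asns was at 6.00 ± 0.42 in control and 7.03 ± 0.34 in NASH (SD, n = 3), a change of 1.03 (SE 0.28, limma adjusted p = 0.0399 with the block). Eif4ebp1 was at 6.86 ± 0.23 and 7.74 ± 0.14, a change of 0.88 (SE 0.20, limma adjusted p = 0.0236 with the block). Psat1, an enzyme of serine synthesis, was at 9.78 ± 0.15 and 9.19 ± 0.19, a change of -0.59 (SE 0.16, limma adjusted p = 0.0383 with the block). In replicates 2 and 3 alone, without the block, Eif4ebp1 was still called (limma adjusted p = 0.0306). Asns (0.0900) and Psat1 (0.103) were not. The list as a whole had 11 changes above 0 and 10 below, with a median of 0.049 beside -0.073 for the synthetases and -0.080 for all genes. At 24 weeks none of the list was called, and Asns and Eif4ebp1 were at -0.38 and -0.39.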

How the data were processed

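RNA-seq of 12 kidney cortex libraries was analysed from the log2 normalized values that the authors deposited for 11614 genes. BWA, limma and the mm10 build are named, per the submitters' processing notes; their versions, the role of each tool and the normalization factor are not given in the sources used here. Below 60 steps, 85.4% to 91.5% of values were whole multiples of 1 step per library (within 0.01 steps), which gave the read depths; values of the 13 synthetases with more than 1 listed transcript can be means over transcripts. Levels per kilobase used the listed lengths.

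Changes were tested with limma 3.58.1 (R 4.3.3), with a mean-variance trend, on 4 group means over all 12 libraries, and Benjamini-Hochberg adjustment over all genes; the procedure was tested on simulated data. Same-numbered libraries deviated together in all 18 pairs (r = 0.187 to 0.742, above the 0.1 set as a minimum), so the block values are printed where they change a call. Replicates 2 and 3 also deviated together (r = 0.187 to 0.637). Replicate 1 deviated against replicate 2 (r = -0.677 to -0.300) and replicate 3 (r = -0.702 to -0.270). Deviations were taken from the mean of the 3 libraries of a group. A replicate 1 that stands apart therefore by itself moves replicates 2 and 3 the same way. For replicates 2 and 3 the check thus cannot show a pairing by number: replicate 2 with 2 gave r = 0.261 to 0.529 and 3 with 3 gave 0.187 to 0.638. GC content came from GENCODE transcripts (GRCm38), for 99.7% of genes and all 36 members. Alternatives were other normalizations, 10 added before log2, a mean log2 of at least 5, no trend, fewer libraries, and removal of a GC and length trend. Values of 1 synthetase are not reported here, and the figures plot 35. Genes were named for a call, the smallest p or their level. The members and lists were chosen with earlier results of these data known.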

Additional observations from a re-analysis of the deposited data

How the results depend on the processing

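The replicate block changed the count of called synthetases from 0 to 2 at 12 weeks and from 0 to 2 in the average, and no other count by a call. Of those 2 calls at 12 weeks, 0 remained with the GC and length trend removed, 0 after quantile normalization, 1 after median-of-ratios scaling, 1 without the mean-variance trend, 0 in a fit of only the compared libraries, 1 in replicates 2 and 3, and 0 to 2 when 1 library was left out (without NASH replicate 3 of 12 weeks, Eprs and Vars2 instead). In the average they were 0 (GC and length), 1 (quantile), 1 (no trend), 0 (replicates 2 and 3) and 0 to 2 (1 library left out). Over all genes, the 1494 calls at 12 weeks with the block became 319 with the GC and length trend removed. Apart from the GC and length trend, these alternatives with the block were chosen after seeing the data. Replicates 2 and 3 alone gave 3 calls between control times. For replicate 1 against the others the 8 calls became 16 (GC and length, chosen after seeing the data), 13 (quantile), 16 (median-of-ratios) and 4 to 9 (1 library left out). Over all genes, 5489 calls became 4181 (GC and length), 4642 (quantile) and 4845 (median-of-ratios). Hars2 turned to -0.056 (GC and length) and -0.012 (quantile), and Wars2 to -0.011 (GC and length). The cytosolic median at 24 weeks, -0.042, was -0.17 in replicates 2 and 3 and -0.15 to -0.035 with 1 library left out. The mitochondrial median at 12 weeks, -0.090, was 0.013 (GC and length) and 0.012 (quantile). The cause of these moves was not tested. With 3 libraries a group, the median 95% interval of a 12-week change reached 0.33 to either side. Lengths from transcripts in place of the listed ones, chosen after seeing the data, moved several levels per kilobase, as given with them.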
